A study of Mus musculus with 9 samples.

Results

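The genes described here encode 10 parts of bone morphogenetic protein (BMP) signalling. They were taken by symbol from the deposited table of counts per gene, and all 10 were found among its 54456 genes and passed the filter on low counts, as did 26081 genes in all. They are 4 ligands (Bmp2, Bmp4, Bmp6 and Bmp7), 2 secreted antagonists (Nog and Grem1), a receptor (Bmpr1a), a decoy receptor (Bambi) and 2 targets (Id1 and Id3). Polyadenylated RNA from mouse skin lesions, labelled AA-like (the series concerns immune-mediated hair loss), was sequenced in 9 libraries. Of these, 3 came from untreated lesions, 3 from lesions treated with empty microneedles and 3 from lesions treated with microneedles loaded with IL-2, a T cell growth factor, and CCL22, a chemokine for cells that bear CCR4. Microneedles are short needles that carry a load into the skin, and both kinds are called needles below. Strain, age, sex, time after treatment and the number of animals behind a library are not stated in the labels, so the spread that the p-values rest on is that of these libraries and may be technical.

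BMP ligands are secreted dimers of the TGF-beta family. They bind type I receptors such as BMPR1A together with a type II receptor, and the receptors phosphorylate SMAD proteins that enter the nucleus with SMAD4 and switch on targets, the Id genes foremost. Noggin and gremlin catch the ligands outside the cell, and BAMBI, a receptor without a kinase domain, blocks signalling at the membrane. In the hair follicle BMP signals are known to keep stem cells at rest, and in the growing follicle BMPR1A is needed in the matrix for the hair shaft to form.

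Total counts per library ran from 85962714 to 96740589. The unit of level is CPM, the count relative to the library's total after correction with TMM factors of 0.930 to 1.04. Keratinocyte markers were abundant in every library, with 5 of 5 (Krt5, Krt14, Krt1, Krt10 and Trp63) detected at a summed 37415 to 38469 CPM in untreated skin, 43366 to 44849 after empty and 26086 to 27956 after loaded needles. After loaded needles all 5 were lower than in untreated skin, whereas after empty needles Krt1 and Krt10 were higher (log2 fold changes 0.42 and 0.49), Krt14 and Krt5 were lower (-0.83 and -0.12) and Trp63 was not called (-0.066). Mitochondrial transcripts made up 4.56% to 4.72% of counts in untreated skin, 3.31% to 3.42% after empty and 3.78% to 3.90% after loaded needles. Their part in the results below was not tested. In bulk tissue, fewer cells of a type and less RNA per cell cannot be told apart.

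Promoter sequences from RefSeq (GRCm38.p6, another build than the mm39 of the counts) were at hand for 5 of the 10 genes, Bmp4, Bmp6, Bmpr1a, Grem1 and Id3. The 250 bases before the start of transcription are printed for Bmp4 and Id3, whose levels followed each other most closely of all 45 pairs among the 10 genes, and for Grem1, which went the other way after loaded needles. They lie at chr14:46390670-46390919 on the minus strand (Bmp4), chr4:136143572-136143821 on the plus strand (Id3) and chr2:113758649-113758898 on the minus strand (Grem1), and each runs 5′ to 3′ towards the gene. Capitals mark matches, on either strand, to GGCGCC or GGAGCC, GC-rich letters described for SMAD proteins of the BMP branch, or to CAGACA, which holds the SMAD box.
Bmp4: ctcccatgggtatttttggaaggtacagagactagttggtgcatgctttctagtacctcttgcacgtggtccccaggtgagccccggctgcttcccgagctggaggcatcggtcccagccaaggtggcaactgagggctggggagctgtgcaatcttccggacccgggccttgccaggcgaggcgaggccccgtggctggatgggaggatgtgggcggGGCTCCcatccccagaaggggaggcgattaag
Id3: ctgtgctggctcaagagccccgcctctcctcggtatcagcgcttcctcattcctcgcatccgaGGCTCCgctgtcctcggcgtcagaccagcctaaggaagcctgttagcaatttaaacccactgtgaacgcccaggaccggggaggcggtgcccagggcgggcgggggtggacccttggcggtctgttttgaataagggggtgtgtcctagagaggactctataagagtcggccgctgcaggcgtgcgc
Grem1: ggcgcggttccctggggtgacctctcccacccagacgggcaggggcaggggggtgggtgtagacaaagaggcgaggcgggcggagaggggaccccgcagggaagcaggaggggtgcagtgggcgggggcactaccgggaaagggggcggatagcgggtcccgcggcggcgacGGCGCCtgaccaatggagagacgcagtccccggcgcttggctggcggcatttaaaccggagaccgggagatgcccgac

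Bmp4 and Id3 held GGAGCC on the strand opposite to the one printed, where it reads GGCTCC, at 32 and 187 bases before the start. Grem1 held GGCGCC beginning 78 bases before the start, and Bmpr1a, not printed, held it beginning 198 bases before the start. Bmp6 held none of the 3, and no match overlapped another. Among 32851 RefSeq promoter windows of the same length, 9.59% held GGCGCC, 26.0% held GGAGCC and 17.1% held CAGACA, so these letters are common and a match is no sign of a bound site.

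Of the 10 genes, 9 differed between the 3 groups by edgeR's quasi-likelihood test at an adjusted p under 0.05, where 59.2% of all tested genes did. Nog was the exception. After empty needles 8 of the 10 were lower than in untreated skin and 0 were higher, where 28.1% of all genes were lower and 20.2% higher. After loaded needles 5 were higher and 3 lower than in untreated skin, where 19.0% of all genes were higher and 23.3% lower. Between the needle groups 8 were higher and 1 lower after loaded needles, where 22.9% of all genes were higher and 18.5% lower. The median log2 fold change of the 10 genes was -0.25 after empty needles, 0.068 after loaded needles and 0.42 between the needle groups, beside -0.016, -0.014 and 0.015 over all tested genes in the same order. The groups did not overlap for 8, 8 and 9 of the 10 genes in that order, where 54.6%, 52.7% and 50.8% of all genes did not overlap. The comparisons share libraries, the untreated ones for both needle groups and each needle group's own for the contrast between them, so they are not independent of each other.

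**Figure D1:**
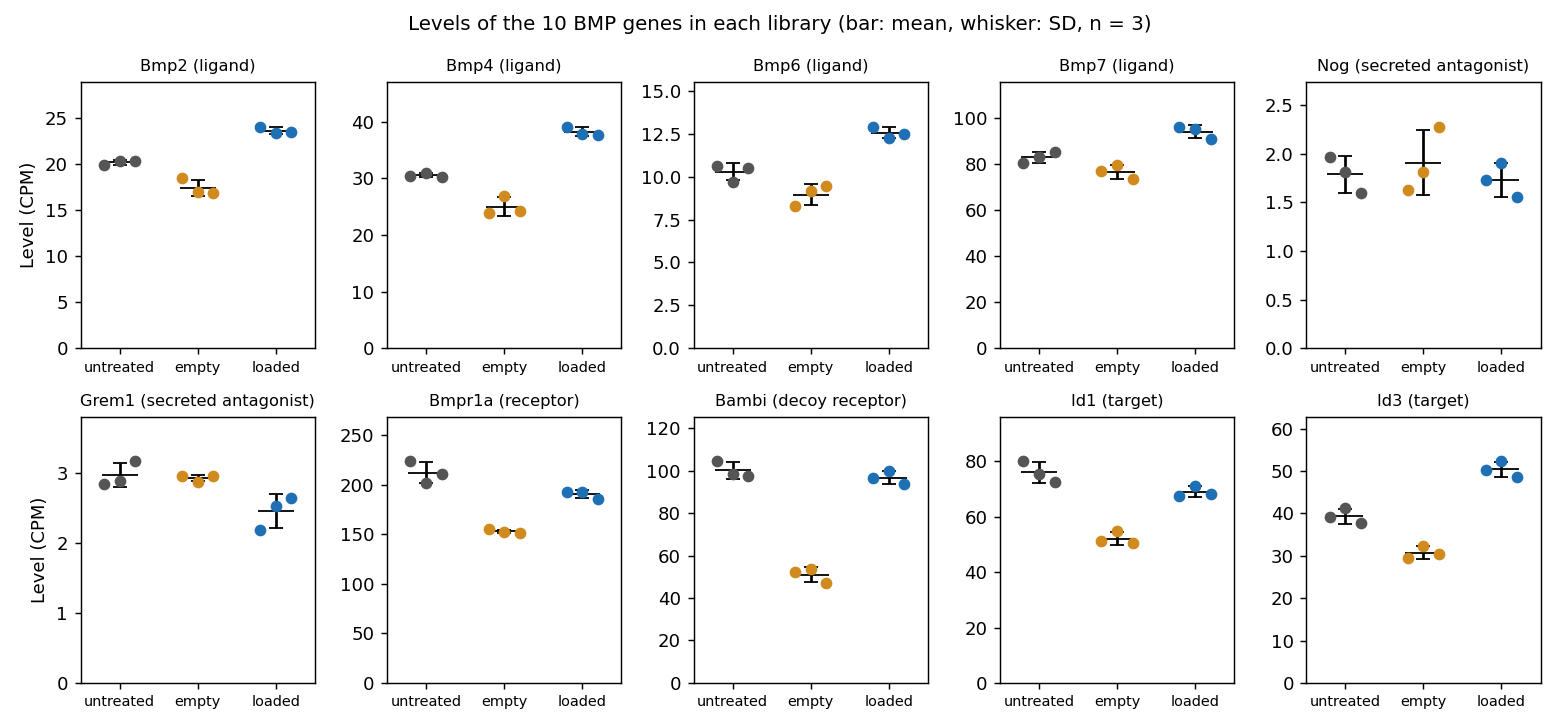
Level of each of the 10 genes in CPM (vertical axes from 0, with a scale for each gene) in the 3 untreated, 3 empty-needle and 3 loaded-needle libraries. Points are libraries, the bar is the mean and the whisker the SD. The 4 ligands and Id3 were highest after loaded and lowest after empty needles, whereas Bmpr1a, Bambi and Id1 were lowest after empty needles and not called higher after loaded needles than in untreated skin.

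The 4 ligand genes had the same order of groups, loaded needles above untreated skin above empty needles, and in each gene neighbouring groups differed by the test. Bmp4, a ligand of the dermal papilla and the hair matrix, lies on chromosome 14 from 46620977 to 46628126 in mm39. It stood at 30.5, 31.0 and 30.2 CPM in the untreated libraries, 23.8, 27.0 and 24.3 after empty needles and 39.2, 38.0 and 37.7 after loaded needles. All 3 loaded-needle libraries lay above all untreated ones, and all empty-needle libraries below them. Bmp4 was 1.25-fold higher after loaded needles than in untreated skin (log2 fold change 0.32, SE 0.041, edgeR adjusted p = 2.40e-07), and changed by -0.29 (SE 0.042, adjusted p = 1.56e-06) after empty needles. Between the needle groups it was 1.53-fold higher after loaded needles (0.61, SE 0.042, adjusted p = 1.11e-12).

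Bmp2, the closest relative of Bmp4 among the ligands, lies on chromosome 2 from 133394079 to 133404805. It stood at 19.8, 20.3 and 20.3 CPM in the untreated libraries, 18.4, 16.9 and 16.8 after empty needles and 24.0, 23.3 and 23.4 after loaded needles. The groups did not overlap. It was 1.17-fold higher after loaded needles than in untreated skin and 1.36-fold higher than after empty needles (log2 fold changes 0.23, SE 0.044, edgeR adjusted p = 0.000123 and 0.44, SE 0.045, adjusted p = 2.87e-09). Its change after empty needles was -0.21 (SE 0.045, adjusted p = 0.000239), a call that was lost with library-size scaling (-0.11, adjusted p = 0.0504).

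Bmp6, a ligand also made by endothelial cells, lies on chromosome 13 from 38529083 to 38684278 and had the fewest counts of the 4 ligand genes, 765 to 1172 per library. Its levels were 10.6, 9.72 and 10.5 CPM in untreated skin, 8.26, 9.14 and 9.45 after empty needles and 12.9, 12.3 and 12.5 after loaded needles. The gap between the lowest untreated and the highest empty-needle library was small, whereas the loaded-needle libraries stood clear of both. The log2 fold changes were 0.29 (SE 0.059, edgeR adjusted p = 0.000193) after loaded needles, -0.20 (SE 0.060, adjusted p = 0.00657) after empty needles and 0.49 (SE 0.059, adjusted p = 6.64e-08) between the needle groups. The fall after empty needles lost its call without empty-needle library 1 (-0.15, adjusted p = 0.0558) and with upper-quartile or library-size scaling (-0.13 and -0.097, adjusted p = 0.0719 and 0.195). Across all alternatives its adjusted p ran from 0.00361 to 0.195. The last 224 bases of Bmp6 overlap Txndc5 on the other strand.

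Bmp7, a ligand of epithelium and mesenchyme, lies on chromosome 2 from 172709805 to 172782114. It had 80.3, 82.9 and 85.4 CPM in untreated skin, 76.9, 79.6 and 73.5 after empty needles and 96.2, 95.0 and 91.0 after loaded needles. It showed the smallest fold changes of the 4 ligands in all 3 comparisons: 0.18 (SE 0.035, edgeR adjusted p = 8.22e-05) after loaded needles, -0.11 (SE 0.035, adjusted p = 0.00877) after empty needles and 0.30 (SE 0.035, adjusted p = 4.52e-08) between them. The fall after empty needles rested on 2 libraries and on the settings. It was -0.042 (adjusted p = 0.402) without empty-needle library 3 and -0.094 (0.0541) without untreated library 3, and it lost its call in 7 further settings, with an adjusted p of 0.00165 to 0.861 over all alternatives.

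The 2 secreted antagonists did not rise with the ligands in the loaded-needle libraries. Grem1, which encodes gremlin, a binder of BMP2, BMP4 and BMP7, lies on chromosome 2 from 113576509 to 113588991. It stood at 2.84, 2.89 and 3.16 CPM in untreated skin, 2.95, 2.88 and 2.96 after empty needles and 2.18, 2.53 and 2.64 after loaded needles. The untreated and empty-needle libraries lay among each other, and the 3 loaded-needle libraries lay below all 6. The log2 fold change was -0.27 (SE 0.099, edgeR adjusted p = 0.0260) against untreated skin and -0.25 (SE 0.098, adjusted p = 0.0376) against empty needles. After empty needles it was -0.020, with a 95% interval of -0.22 to 0.18.

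Both Grem1 calls were close to the threshold at 195 to 285 counts per library. Against untreated skin the call was lost without loaded-needle library 1 (log2 fold change -0.20, edgeR adjusted p = 0.173), without untreated library 3 (-0.23, 0.120), with library-size scaling (-0.14, 0.264) and by the DESeq2 Wald test (-0.26, 0.0517). Between the needle groups it was lost without loaded-needle library 1 or 2 (-0.18 and -0.28, 0.229 and 0.0606), without empty-needle library 1 or 2 (-0.25 and -0.27, 0.0829 and 0.0580), with library-size scaling (-0.23, 0.0682) and with no filter (-0.26, 0.0502). Grem1 was lower after loaded needles under all 17 alternatives in both comparisons.

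Nog encodes noggin, the antagonist best known for releasing hair follicle stem cells from BMP signals, and lies on chromosome 11 from 89191464 to 89193158. It had only 138 to 220 counts per library. Its levels were 1.97, 1.81 and 1.59 CPM in untreated skin, 1.63, 1.81 and 2.28 after empty needles and 1.73, 1.91 and 1.56 after loaded needles. The 3 groups overlapped throughout, and no comparison passed the test. The 95% interval of the log2 fold change was -0.32 to 0.23 after loaded needles, -0.18 to 0.37 after empty needles and -0.41 to 0.13 between the needle groups (edgeR adjusted p = 0.821, 0.599 and 0.429). Changes of Nog within these intervals are not excluded.

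Bmpr1a and Bambi, the 2 membrane proteins of the set, were both lowest after empty needles, far below untreated skin and loaded needles. Bmpr1a encodes the type I receptor BMPR1A and lies on chromosome 14 from 34132691 to 34225298. It had 224, 202 and 211 CPM in untreated skin, 155, 153 and 151 after empty needles and 193, 192 and 186 after loaded needles. Each group stood apart, and the empty-needle libraries lay close to each other. The receptor gene was 1.25-fold higher after loaded than after empty needles (log2 fold change 0.32, SE 0.035, edgeR adjusted p = 1.29e-08) and changed by -0.47 (SE 0.035, adjusted p = 3.81e-12) after empty needles. After loaded needles it was lower than in untreated skin (-0.16, SE 0.035, adjusted p = 0.000535), a call that was lost with library-size scaling (-0.022, adjusted p = 0.634).

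Bambi had the largest change of the 10 genes, in the comparison of empty needles with untreated skin. It lies on chromosome 18 from 3507923 to 3516404. Its levels were 104, 98.7 and 97.3 CPM in untreated skin, 52.4, 53.9 and 47.0 after empty needles and 96.7, 99.8 and 93.7 after loaded needles. The empty-needle libraries stood at about the midpoint between 0 and the other 6, which lay among each other. The log2 fold change was -0.97 (SE 0.043, edgeR adjusted p = 6.62e-14) after empty needles, a 1.96-fold lower level, and 0.92 (SE 0.043, adjusted p = 2.18e-13) between the needle groups. After loaded needles it was -0.049 against untreated skin, with a 95% interval of -0.14 to 0.038 (adjusted p = 0.389). This last value was 0.084 with library-size scaling (adjusted p = 0.0706), so its direction was not fixed.

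**Figure D2:**
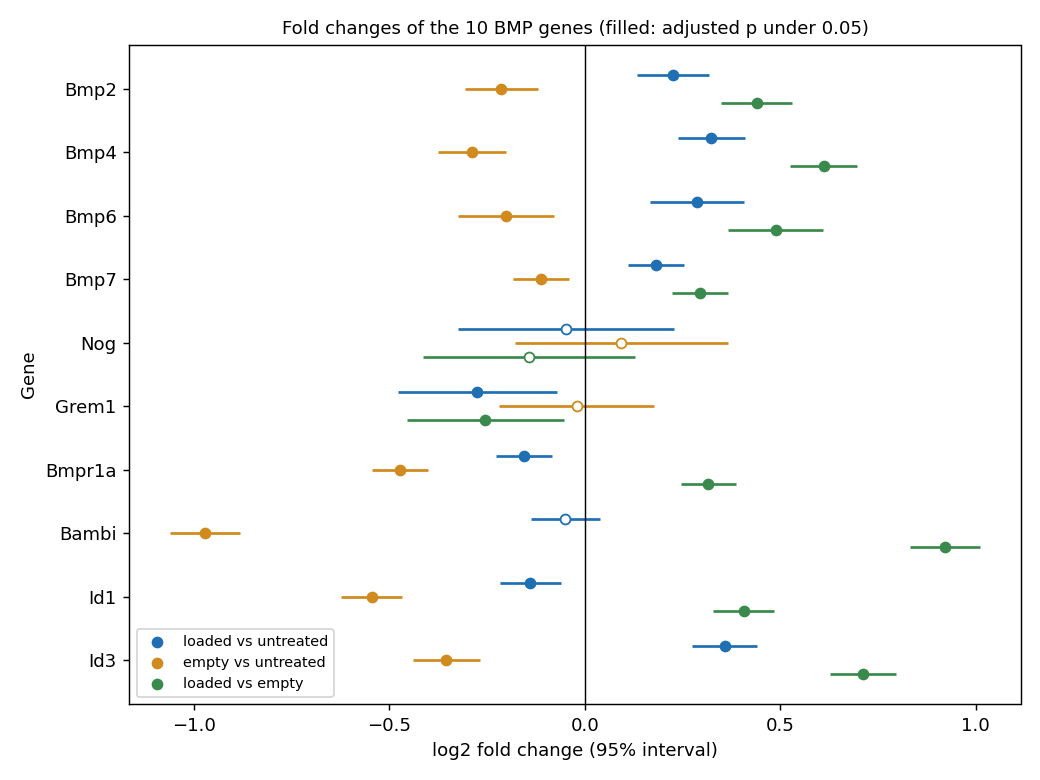
Log2 fold change of each of the 10 genes (horizontal axis) in the 3 comparisons, with 95% intervals as lines. Filled points passed an adjusted p under 0.05. The empty-needle values lie left of 0 for 9 of 10 genes, of which 8 were called, and reach -0.97 for Bambi. Grem1, not called, lies at -0.020. The loaded-against-empty values lie right of 0 for all but Nog and Grem1.

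The 2 targets parted after loaded needles. Id1 and Id3 encode inhibitors of DNA binding, proteins that pair with transcription factors of the helix-loop-helix class and keep them off DNA, and both are textbook readouts of BMP signalling. Id3, on chromosome 4 from 135870808 to 135873066, had 39.1, 41.2 and 37.7 CPM in untreated skin, 29.4, 32.4 and 30.5 after empty needles and 50.3, 52.3 and 48.7 after loaded needles. It followed the order of the ligands, with no overlap between any of the groups. Id3 was 1.28-fold higher after loaded needles than in untreated skin (log2 fold change 0.36, SE 0.040, edgeR adjusted p = 3.00e-08), changed by -0.35 (SE 0.041, adjusted p = 3.11e-08) after empty needles and was 1.64-fold higher after loaded than after empty needles (0.71, SE 0.041, adjusted p = 3.97e-14).

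Id1, on chromosome 2 from 152578171 to 152579330, followed the order of the receptor gene Bmpr1a instead. It had 80.0, 75.6 and 72.5 CPM in untreated skin, 51.1, 54.7 and 50.5 after empty needles and 67.6, 71.2 and 68.4 after loaded needles. The groups did not overlap, though the highest loaded-needle library came close to the lowest untreated one. Id1 changed by -0.55 (SE 0.038, edgeR adjusted p = 1.75e-12) after empty needles and by 0.41 (SE 0.038, adjusted p = 7.83e-10) between the needle groups. After loaded needles it was slightly lower than in untreated skin (-0.14, SE 0.038, adjusted p = 0.00359), and this call was lost with library-size scaling (-0.0052, adjusted p = 0.923).

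Ratios of the counts of 2 genes within a library do not depend on the scaling between libraries. The ratio of Id1 to Id3 counts was 2.04, 1.84 and 1.92 in untreated skin, 1.74, 1.69 and 1.65 after empty needles and 1.34, 1.36 and 1.40 after loaded needles. It fell from group to group without overlap, so that Id1 and Id3 changed unequally in each needle group. The ratio of Bambi to Bmpr1a counts was 0.467, 0.488 and 0.462 in untreated skin, 0.339, 0.353 and 0.311 after empty needles and 0.501, 0.520 and 0.504 after loaded needles. Bambi was thus lower relative to the receptor gene in all empty-needle libraries. The ratio of Bmp4 to Grem1 counts was 10.7, 10.7 and 9.55 in untreated skin, 8.08, 9.37 and 8.23 after empty needles and 18.0, 15.0 and 14.3 after loaded needles, so that ligand counts were highest relative to this antagonist after loaded needles. These ratios were chosen after the values were seen and were not tested. They compare counts, not amounts of RNA per gene, because gene lengths differ.

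**Figure D3:**
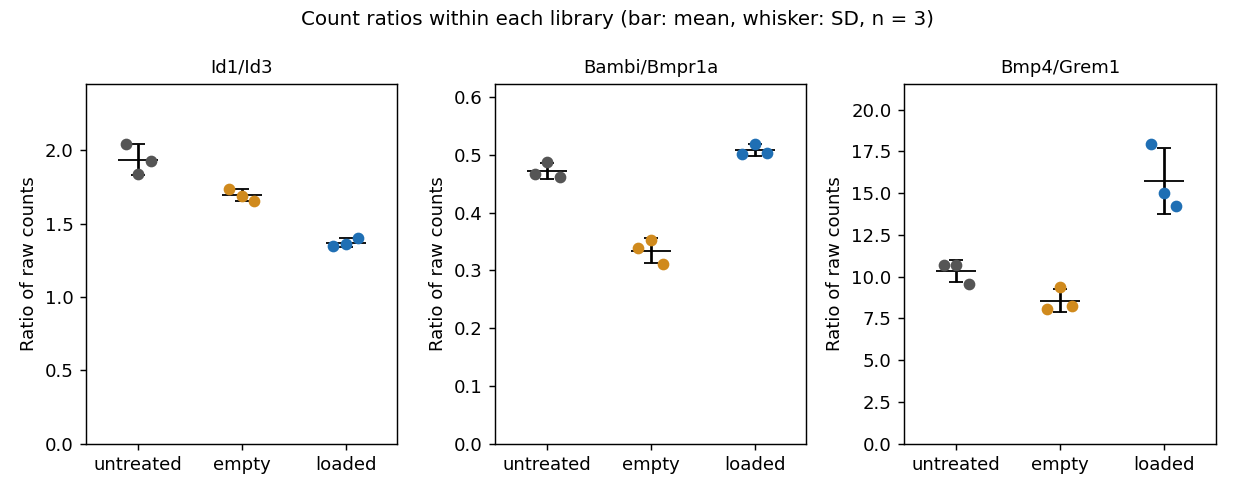
Ratio of the raw counts of 2 genes within each library (vertical axes from 0) for Id1 to Id3, Bambi to Bmpr1a and Bmp4 to Grem1. Points are libraries, the bar is the mean and the whisker the SD of 3. The Id1 to Id3 ratio is lowest after loaded needles, at 1.34 to 1.40, and the Bambi to Bmpr1a ratio is lowest after empty needles, at 0.311 to 0.353.

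Across the 9 libraries the closest pair was Bmp4 and Id3. Bmp4 and Id3 had a Pearson r of 0.990 in log2 CPM, and the 4 ligands correlated with each other at 0.892 to 0.961. Bmpr1a, Bambi and Id1 correlated with each other at 0.948 to 0.975. Id1 and Id3 correlated at 0.712 and Bmp4 and Bmpr1a at 0.609, whereas Bambi correlated with Id3 at 0.829 and with Bmp2 and Bmp4 at 0.814 each. Nog stayed between -0.447 and 0.0626 with all other genes of the set. Grem1 ran against the ligands, at -0.760 to -0.715. These values describe 9 libraries in 3 clusters and mostly repeat the order of the group means.

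Of 13918 other genes that averaged 1 CPM or more, those closest to each gene by the same r were mostly outside the BMP pathway. For Bambi they were Krtap15 (0.999) and Krtap11-1 (0.998), keratin-associated proteins of the hair shaft, and for Bmp4 they were Crym (0.996) and Krt35 (0.992), a hair shaft keratin. Krt35 had means of 406, 302 and 556 CPM in untreated, empty-needle and loaded-needle skin, and Krtap15 had 899, 473 and 885. For Bmp7 the closest genes were Padi4 (0.994) and Zfp618 (0.993), for Bmp2 Nsd2 and Capn6 (both 0.992), and for Bmp6 Rcn2 (0.988) and Rbbp5 (0.986). For Id3 they were Dusp8 (0.994) and Tmeff1 (0.993), for Id1 Kyat3 and Ptrh2 (both 0.998), and for Bmpr1a Fbxl5 (0.998) and Trip4 (0.997). Grem1 was closest to Ghr (0.968) and Lyn (0.957), and Nog to Ralyl (0.900) and Cntn4 (0.896). Picked as the highest of 13918 over 9 libraries in 3 clusters, these r values mostly repeat the order of the group means as well.

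Markers of several skin cell types moved with these levels, and their part in the results was not tested. The 10 hair matrix and shaft markers, all detected, summed to 3812 to 3885 CPM in untreated skin, 2516 to 2875 after empty needles and 4508 to 4765 after loaded needles. All 10 were lower after empty needles and 9 were higher after loaded needles, each against untreated skin. Of 9 dermal papilla markers 8 were detected, with sums of 103 to 106, 75.7 to 81.3 and 137 to 147 CPM in the same order. Sox2, a defining marker, was listed at 0 in every library, as was every other gene that lies wholly inside a gene of the same strand. Of the 8, 6 were lower after empty needles, and 7 were higher and 1 lower after loaded needles. The order of the sums of both lists, which share Lef1, was that of the 4 ligands and Id3, and the adipocyte sums below had it too.

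The 7 markers of dividing cells summed to 585 to 638, 305 to 316 and 519 to 540 CPM in the same order. All 7 were lower after empty needles than in untreated skin, as 8 of the 10 BMP genes were. The order of the mean sums, untreated skin above loaded above empty needles, was that of the means of Bmpr1a, Bambi and Id1. After loaded needles 5 were lower and 1, Aurkb, was higher than in untreated skin. Adipocyte markers (7 of 7 detected) summed to 861 to 941, 527 to 578 and 983 to 1025 CPM, which is also the order of the 4 ligands and Id3. Against untreated skin 6 of them were lower and 1 higher after empty needles, and 4 were higher and 0 lower after loaded needles. Skeletal muscle markers (7 of 7 detected) summed to 7339 to 7559, 9192 to 10736 and 6646 to 7133 CPM. After empty needles 6 of them were higher and 1, the fast myosin gene Myh4, was lower than in untreated skin (log2 fold change -0.93, edgeR adjusted p = 5.52e-08). After loaded needles 5 of them were lower and 1, again Myh4, was higher than in untreated skin. The 8 endothelial markers, all detected, summed to 116 to 121, 122 to 138 and 124 to 128 CPM. Against untreated skin 5 were higher and 0 lower after empty needles, and 2 higher and 0 lower after loaded needles. Fibroblast markers (7 of 7) summed to 1452 to 1502, 1242 to 1334 and 969 to 997 CPM, and macrophage markers (7 of 7) to 236 to 250, 210 to 215 and 154 to 168 CPM. The sums of both lists were lowest after loaded needles, as Grem1 was. So were the mean sums of the keratinocyte, skeletal muscle and stem cell markers. After empty needles 6 of 7 in each of the fibroblast and macrophage lists were lower and 1 higher than in untreated skin, where Grem1 was not called. After loaded needles 6 fibroblast and 7 macrophage markers were lower than in untreated skin, and 0 were higher. The 8 stem cell markers, all detected, summed to 799 to 823, 711 to 754 and 708 to 723 CPM. Krt15 made up most of these sums, at means of 567, 499 and 474 CPM. Of the 8, 1 was higher and 5 lower after empty needles than in untreated skin. After loaded needles 3 were higher and 2 lower than in untreated skin, and 4 higher and 2 lower than after empty needles.

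The rest of the pathway was read from a list of 49 other genes, of which 44 passed the filter on low counts. Bmp10, Gdf2, Gdf5, Gdf7 and Sost did not, with at most 11 counts in any library. After empty needles 10 were higher and 11 lower than in untreated skin, after loaded needles 20 higher and 5 lower, and between the needle groups 19 higher and 10 lower after loaded needles. The median log2 fold changes were -0.020, 0.091 and 0.11 in that order. After empty needles these counts were near the shares over all tested genes, 20.2% higher and 28.1% lower. Over all genes 19.0% were higher and 23.3% lower after loaded needles than in untreated skin, and 22.9% higher and 18.5% lower between the needle groups. Counts by role below are to be read against the same shares, and rest on few genes each. Unless stated otherwise, the genes named below are the 3 of each role with the smallest p over the 3 groups.

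Among the 6 other ligand genes tested, 3 were higher and 1 lower after loaded needles than in untreated skin. Gdf10, which encodes a divergent member of the family, stood at 5.73 ± 0.418 CPM in untreated skin, 5.20 ± 0.254 after empty needles and 9.26 ± 0.234 after loaded needles (mean ± SD, n = 3 libraries). Bmp8a stood at 9.35 ± 0.562, 6.95 ± 0.222 and 14.6 ± 1.81 CPM in the same order, and its neighbour in sequence Bmp8b at 0.827 ± 0.241, 0.601 ± 0.0698 and 1.35 ± 0.181 CPM. All 3 were highest after loaded needles (log2 fold changes against empty needles of 0.83, 1.07 and 1.17, edgeR adjusted p = 4.02e-11, 5.89e-11 and 7.06e-06). Because Bmp8a and Bmp8b are close copies of each other, the split of reads among the pair is uncertain. The lower ligand gene was Bmp5, named here after its values were seen, at means of 0.88, 0.95 and 0.55 CPM in untreated, empty-needle and loaded-needle skin. After loaded needles it changed by -0.68 against untreated skin and by -0.79 against empty needles (edgeR adjusted p = 0.00371 and 0.000653).

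Of the 12 other genes tested that were listed as secreted antagonists, 3 were higher and 2 lower after loaded needles than in untreated skin. After empty needles 1 was higher and 2 lower, and between the needle groups 4 were higher and 2 lower. Fstl1, a follistatin-like protein, was lower in both needle groups, at 110.04 ± 2.78, 85.0 ± 2.98 and 87.1 ± 0.545 CPM in untreated, empty-needle and loaded-needle skin. Twsg1, a partner of chordin, was lower after loaded needles than in untreated skin or after empty needles (log2 fold changes -0.30 and -0.25, edgeR adjusted p = 5.40e-09 and 6.79e-08), as Grem1 was. Nbl1, a relative of gremlin, was higher after empty needles by 0.32 (SE 0.039, adjusted p = 7.19e-08) than in untreated skin and stood at 25.6 ± 0.791 and 25.6 ± 0.649 CPM in untreated and loaded-needle skin. The 3 genes of this list that were higher after loaded needles were Sostdc1, Chrdl1 and Crim1, named here after their values were seen. Their log2 fold changes against untreated skin were 0.32, 0.26 and 0.15 (edgeR adjusted p = 1.06e-06, 0.0116 and 0.000316).

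Of the 10 other receptor and co-receptor genes, 5 rose, 0 fell and 5 were not called after empty needles, where Bmpr1a fell. Rgmb, which encodes a membrane-anchored co-receptor for BMP2 and BMP4, rose from 64.5 ± 1.66 to 99.0 ± 0.380 CPM after empty needles and stood at 70.0 ± 1.43 CPM after loaded needles (log2 fold change between the needle groups -0.50, SE 0.031, edgeR adjusted p = 1.87e-13). Its relatives Rgma and Hjv rose after empty needles as well, by 0.32 and 0.53 (adjusted p = 5.45e-08 and 7.61e-07). Hjv, the gene of hemojuvelin, is known from skeletal muscle, of whose 7 markers 6 were higher and 1 lower after empty needles. Of the same 10 genes, 1 was higher and 4 lower after loaded than after empty needles.

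The 4 SMAD genes of the pathway were all higher after loaded needles than in untreated skin, and 1 was higher after empty needles. Smad5 rose from 84.2 ± 0.586 to 100.3 ± 1.06 CPM and Smad4 from 56.4 ± 1.46 to 68.5 ± 0.452 CPM (log2 fold changes 0.25 and 0.28, edgeR adjusted p = 1.03e-07 and 3.60e-08). Smad1 was higher in both needle groups, by 0.098 after loaded and 0.14 after empty needles (adjusted p = 0.0290 and 0.00188).

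The intracellular inhibitors and the other targets held genes that shared the order of the ligands. Smad6 and Smad7, inhibitory SMADs that BMP signals themselves induce, stood at 27.1 ± 1.90 and 30.5 ± 1.74 CPM in untreated skin, 23.9 ± 0.997 and 26.5 ± 1.41 after empty needles and 38.5 ± 2.12 and 39.3 ± 2.68 after loaded needles. Both were lower after empty needles and higher after loaded needles than in untreated skin (edgeR adjusted p = 0.00442 and 0.00306, and 8.89e-09 and 7.18e-06). Smurf1, a ubiquitin ligase that marks SMAD1 and SMAD5 for breakdown, was higher in both needle groups, by 0.40 after empty and 0.13 after loaded needles (adjusted p = 3.07e-10 and 0.00504).

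Msx1 and Msx2, homeobox genes of the hair matrix and textbook BMP targets, changed as Id3 did. Msx2 stood at 82.1 ± 2.60, 63.6 ± 3.79 and 110.3 ± 1.61 CPM and Msx1 at 9.91 ± 0.342, 7.94 ± 0.125 and 13.3 ± 0.384 CPM in untreated, empty-needle and loaded-needle skin, with log2 fold changes between the needle groups of 0.79 and 0.74 (edgeR adjusted p = 8.42e-16 and 4.81e-12). Id2, the third gene of the Id family described here, resembled Bambi more, at 42.5 ± 0.605, 32.0 ± 1.09 and 43.7 ± 1.30 CPM, and changed by -0.41 (adjusted p = 1.65e-10) after empty and by 0.041 (adjusted p = 0.403) after loaded needles. Of the 7 other targets 5 were lower and 1 higher after empty needles, 3 higher and 0 lower after loaded needles, and 5 higher and 1 lower between the needle groups. Id4, named here after its values were seen, was the target that rose after empty needles (0.35, adjusted p = 1.65e-09).

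**Figure D4:**
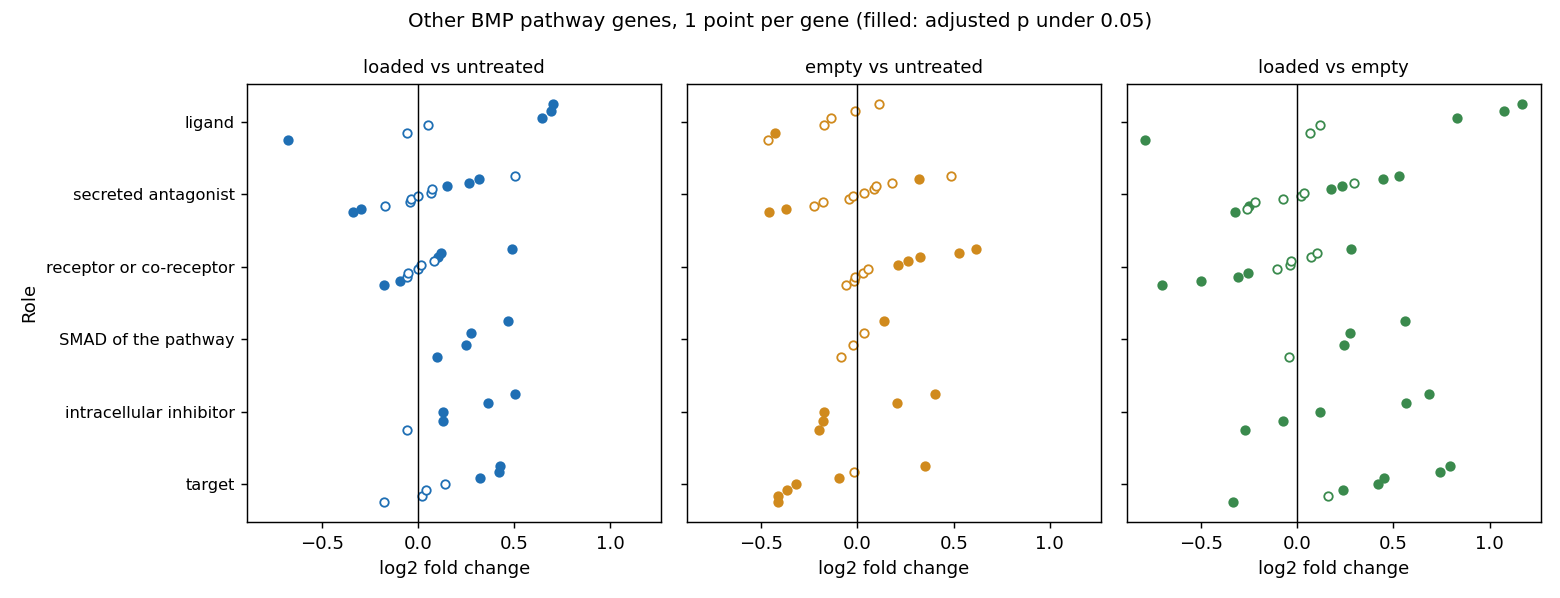
Log2 fold changes of the 44 other BMP pathway genes (horizontal axis, 1 point per gene) by role and comparison, filled where the adjusted p was under 0.05. The 4 SMAD genes lie right of 0 after loaded needles against untreated skin, and 5 of 10 receptor and co-receptor genes are higher after empty needles.

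Scaling between libraries bore on the smaller differences. Scaling by library size alone moved the median of all genes by 0.13 (loaded needles) and 0.10 (empty needles) on the log2 scale against untreated skin, and the share of calls that were higher from 44.9% to 68.1% and from 41.7% to 57.9%. Under it 5 of the 10 genes were higher and 0 lower after loaded needles, and 5 were lower and 0 higher after empty needles. With upper-quartile scaling the share of higher calls was 53.1% for empty needles against untreated skin and 44.4% between the needle groups, where TMM scaling gave 55.3%. Between the needle groups 8 of the 10 genes were higher after loaded needles under all 4 scalings. The rise of all 4 ligands and Id3 after loaded needles, and the fall of Bmp4, Bmpr1a, Bambi, Id1 and Id3 after empty needles, kept their calls under all 17 alternatives.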

How the data were processed

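Per the labels' protocols, miRNeasy columns gave the RNA and the xGen Broad-Range chemistry the libraries. The authors deposited raw counts of reads per gene, made with HISAT2 and featureCounts on mm39, per the submitters' processing notes. The sources used here name neither versions nor annotation. The length column equals the whole span of 99.9% of genes, all 10 described here included, so reads in introns were counted and levels are not compared between genes. All 5737 genes that lie wholly inside a gene of the same strand were listed at 0, against 13.9% of the 5960 inside a gene of the other strand only, so the counts separate the strands.

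In R 4.3.3, genes passed edgeR's filter (minimum count 10, minimum total 15), were scaled by TMM and fitted with edgeR 4.0.16 (robust quasi-likelihood, 3 groups in 1 fit). P-values were adjusted by Benjamini-Hochberg over all 26081 tested genes and called under 0.05. Tests are two-sided, and intervals of 95% come from the standard error and the fit's degrees of freedom. The procedure was tested on simulated data. Alternatives were 3 other scalings, 2 other filters, DESeq2 1.42.0, a fit of 2 groups at a time, a replicate block and leaving out each library. Named by rule were the 10 genes and up to 3 other pathway genes per role with the smallest p over the 3 groups. So were the 2 genes closest to each of the 10 in log2 CPM (prior count 2), leaving out predicted genes. Pathway genes named after their values were seen are marked as such. The genes, lists and rules were chosen with earlier results of these data known.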

Additional observations from a re-analysis of the deposited data

How the results depend on the processing

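Of 510 values of the 10 genes under alternative settings, 472 kept their direction and side of the threshold, 25 lost the call and 13 changed sign, and the cause was not tested. With library-size scaling 5 of the 10 genes were called after loaded needles and 5 after empty needles, each against untreated skin. Leaving out 1 library at a time gave 7 to 8 called after loaded needles, 7 to 8 after empty needles, 8 to 9 between the needle groups and 8 to 9 over the 3 groups. All values that changed sign had missed the threshold. Grem1 after empty needles became 0.010 with DESeq2 size factors, 0.083 with library-size scaling, 0.050 with upper-quartile scaling, 0.028 with the stricter filter and 0.011 both with only the 2 groups and by the DESeq2 Wald test, and ran from -0.052 to 0.026 without single libraries. Nog after loaded needles became 0.086 with library-size scaling and ran from -0.13 to 0.025 without single libraries, and after empty needles from -0.014 to 0.19. Bambi after loaded needles became 0.084 with library-size scaling. A fit with the replicate block called 8, 8 and 9 genes (loaded needles, empty needles, between the needle groups) and changed no call of the 10 genes. Libraries with the same number correlated at -0.11 to 0.12 in their deviations from group means. Between the needle groups these values were 0.12, 0.040 and 0.089, whereas pairs of unlike number lay at -0.10 to -0.0035. Untreated libraries did not correlate best with their own number in either needle group. Whether the numbers pair the needle libraries cannot be settled from these values. Nog and Grem1 had the fewest counts of the 10 genes, at 138 to 285 per library.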
